A study of Mus musculus and Homo sapiens with 12 samples.

Results

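The 10 genes described here are read as marks of blood vessel endothelium and of hemogenic endothelium, the vessel lining from which the first blood stem cells arise. They are the vascular endothelial growth factor (VEGF) receptor genes KDR and FLT1, the receptor genes TIE1 and ENG, the junction genes PECAM1, CDH5 and ESAM, the secreted factor gene EGFL7, the caveolar protein gene PLVAP and the transcription factor gene SOX17. They were listed by name as known endothelial genes, with earlier results of these data already known, so their counts and medians describe the list and are no independent evidence. All 10 were found among the 55487 genes of the mouse raw table and the 78932 genes of the human raw table. The normalized table held 9 of them by symbol in the mouse, where Sox17 had no row, and all 10 in the human. After a filter on low counts, 9 mouse and 10 human genes could be tested.

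Messenger RNA was counted in 12 libraries of blood progenitors with and without DDX21, an RNA helicase of the nucleolus, as 3 libraries in each of 4 groups. The mouse cells were live lineage-negative, Kit-positive (LK) cells sorted from fetal liver at stage E13.5 (counted in days of gestation). The WT group carried loxP-flanked Ddx21 (Ddx21f/f) without Cre. The cKO group carried the same alleles with Vav-Cre, a Cre recombinase driven by Vav regulatory elements that are active in blood cells. Cre was therefore present in 1 group only, and effects of Cre and of Ddx21 loss cannot be told apart. The human cells were made from the embryonic stem cell line H1 with a commercial blood differentiation kit and transduced with lentivirus shNC-mCherry (control hairpin) or shDDX21-mCherry. The sort, 2 days later, took cells carrying CD43, CD45, CD34 and mCherry. The labels name 1 hairpin against DDX21. They do not say whether the libraries of a group came from separate embryos, pooled embryos or separate cultures, so the p-values measure the spread between these libraries only.

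As background, KDR and FLT1 bind VEGF at the endothelial surface, where KDR carries most of the growth and permeability signal and FLT1 largely acts as a trap for the ligand. Arterial endothelium becomes hemogenic under VEGF, Notch and SOX17, and its cells then switch on blood transcription factors such as RUNX1 and GFI1 while the endothelial program is turned down. Several of these genes stay on in blood cells: ENG and ESAM are surface marks of blood stem cells, PECAM1 is found on leukocytes and platelets, and EGFL7 and TIE1 are transcribed in immature progenitors.

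Promoter sequences of mouse Eng, Tie1, Kdr and Flt1 are shown because the first pair gave called changes and the second pair, 2 related VEGF receptors, did not. Factors of the ETS family, which bind a core of the letters GGAA, are the common regulators of endothelial promoters. Each line gives the 250 bases before the RefSeq start on GRCm38.p6, 5′ to 3′ on the gene's strand, with every GGAA or TTCC (the same core on the other strand) in capitals.

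Eng: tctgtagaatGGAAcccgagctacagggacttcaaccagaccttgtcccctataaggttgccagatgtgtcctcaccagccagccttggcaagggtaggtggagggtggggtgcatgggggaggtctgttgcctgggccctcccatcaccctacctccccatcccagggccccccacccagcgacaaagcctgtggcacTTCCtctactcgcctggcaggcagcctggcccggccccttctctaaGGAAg

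Tie1: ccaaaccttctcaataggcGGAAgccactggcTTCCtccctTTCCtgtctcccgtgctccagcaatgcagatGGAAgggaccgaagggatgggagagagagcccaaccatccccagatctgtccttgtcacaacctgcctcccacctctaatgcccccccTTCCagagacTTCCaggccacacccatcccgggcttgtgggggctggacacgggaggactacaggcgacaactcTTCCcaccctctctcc

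Kdr: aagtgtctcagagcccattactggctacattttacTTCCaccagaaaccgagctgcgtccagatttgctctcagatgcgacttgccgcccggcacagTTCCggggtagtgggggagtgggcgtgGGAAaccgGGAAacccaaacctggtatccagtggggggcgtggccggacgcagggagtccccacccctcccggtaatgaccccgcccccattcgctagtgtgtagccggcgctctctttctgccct

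Flt1: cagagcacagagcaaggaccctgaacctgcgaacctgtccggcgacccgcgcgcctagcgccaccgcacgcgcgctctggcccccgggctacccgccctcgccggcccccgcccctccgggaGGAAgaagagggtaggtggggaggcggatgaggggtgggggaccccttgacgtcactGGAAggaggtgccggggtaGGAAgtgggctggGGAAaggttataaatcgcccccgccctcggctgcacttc

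The Eng stretch is chr2:32646345-32646594 (plus strand), that of Tie1 is chr4:118489850-118490099 (minus), that of Kdr is chr5:75978456-75978705 (minus) and that of Flt1 is chr5:147726012-147726261 (minus). Tie1 had 7 ETS core matches, and 3.82% of the 32851 mouse promoters in the RefSeq table had at least as many. The Tie1 stretch crosses the upstream edge of the counted gene model, at chr4:118490061, and lies mostly inside it. Kdr and Flt1 had 4 matches each, reached by 33.4% of promoters, and Eng had 3, the median over all promoters. An ETS core was present in 93.4% of all promoters, so its presence sets none of these genes apart. The GATA core (GATA or TATC on either strand) was found once in Kdr and in none of the other three, against 53.6% of all promoters with 1 or more. An E-box (CANNTG, where N is any base) was found once each in Eng, Tie1 and Kdr and not in Flt1, against 66.2% of all promoters. GC content was 62.4% in Eng, 60.4% in Tie1, 61.6% in Kdr and 70.4% in Flt1, all above the median promoter at 52.4%. A match is a string of letters and not a bound site.

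The mouse libraries held 21116079 to 23898130 counts and the human libraries 15289510 to 19798608. DDX21 itself fell in both experiments, from 1424 ± 12.5 to 280.2 ± 3.62 CPM (counts scaled to library size with edgeR's TMM factors; SD, n = 3) in the mouse and from 470.1 ± 6.05 to 68.3 ± 1.14 CPM (SD, n = 3) in the human. The spread between replicates, as edgeR's biological coefficient of variation, was 10.5% in the mouse and 2.23% in the human. A gene was called when its Benjamini-Hochberg adjusted p over all genes tested was under 0.05. In the mouse, 3083 genes were higher and 2360 lower in cKO (3565 and 1612 with libraries scaled by total counts), and in the human 5105 were higher and 5526 lower in shDDX21. The sorted cells had the RNA of their gates: Kit stood at 362.3 CPM (WT) and 316.9 CPM (cKO), Ly6g and Cd3e had at most 1 count in any mouse library, and human CD34, PTPRC (CD45) and SPN (CD43) were at 248.6, 94.9 and 690.8 CPM in shNC.

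The mouse libraries also differed within groups by the GC content of transcripts, and this touches 4 of the 10 genes. Over genes of under 42% GC the median log2 difference of the mean of WT replicates 1 and 2 over WT replicate 3 was -0.06, and over genes of 57 to 60% GC it was 0.39. The same difference of cKO replicate 1 over cKO replicate 2 was -0.12 and 0.58. Eng (57.4% GC), Egfl7 (57.1%), Tie1 (57.6%) and Plvap (60.6%) lie at or above that upper range (over 60% GC the medians were 0.58 and 0.74), and in all 4 the lowest WT library was replicate 3, the lowest cKO library was replicate 2 and the highest cKO library was replicate 1. Pecam1, Cdh5, Esam, Kdr and Flt1 lie between 49.4% and 52.2% GC, except Esam at 53.7%. The difference between the groups followed GC content as well. The median log2 fold change of cKO over WT was 0.025 under 42% GC, -0.297 at 57 to 60% and -0.404 over 60%. The mouse log2 fold change of each tested listed gene is therefore also given with an offset for GC content and without WT replicate 3 and cKO replicate 2. Both settings were added after seeing the data. Mouse values of the other gene lists below are given without them, except where stated.

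**Figure D1:**
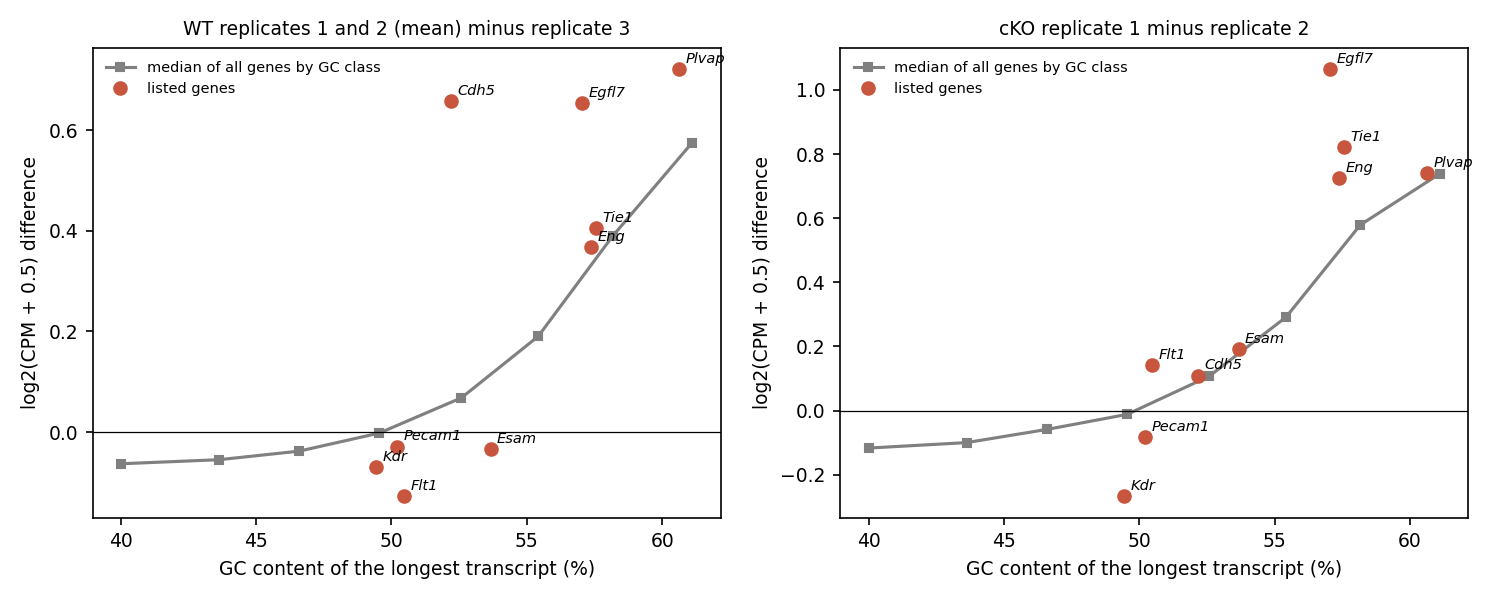
Differences between libraries of 1 group (log2 of CPM plus 0.5, vertical axis) against the GC content of the longest transcript in percent (horizontal axis), with the median of all genes by GC class as squares and the 9 tested mouse genes as points. The medians rise from -0.06 to 0.58 in WT (left) and from -0.12 to 0.74 in cKO (right), and Eng, Egfl7, Tie1 and Plvap lie at the high end of both.

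In mouse LK cells, 5 of the 9 tested genes were higher in cKO: Eng, Esam, Cdh5, Tie1 and Pecam1, at 1.35 to 3.08 times their WT level. None was called lower, and Kdr, Flt1, Egfl7 and Plvap did not pass the test. Over all 14918 mouse genes tested, 20.7% were called higher and 15.8% lower, and the median log2 fold change was 0.46 over the 9 genes against 0.00 over all genes. The summed level of the 10 genes was 99.1 to 129.4 CPM in WT and 152.0 to 226.6 CPM in cKO. These are mixed cell populations, so fewer cells of a type and less RNA per cell cannot be told apart in any level given here.

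Kdr (ENSMUSG00000062960, GRCm38 chr5:75932827-75978458, minus strand), the main signalling receptor for VEGF, was at 3.10, 2.87 and 3.16 CPM in WT replicates 1 to 3 and at 2.44, 3.04 and 3.04 CPM in cKO. The groups overlapped, with cKO replicate 1 the lowest of the 6 libraries. Its log2 fold change was -0.10 (adjusted p = 0.611, SE 0.14), -0.14 with the GC offset and -0.12 without the 2 libraries.

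Flt1 (ENSMUSG00000029648, chr5:147561604-147726011, minus strand), the receptor that also traps VEGF and its relative PGF, rested on 18 to 36 counts per library. It was at 1.08, 0.876 and 1.11 CPM in WT and at 1.39, 1.22 and 1.63 CPM in cKO. All 3 cKO libraries lay above all 3 WT libraries, as was so for 27.6% of all genes tested (49.0% in either direction). In all, 6 of the 9 genes had groups without overlap, each with cKO above WT. The difference did not pass the test, with a log2 fold change of 0.46 (adjusted p = 0.113, SE 0.20), 0.42 with the GC offset and 0.63 without the 2 libraries.

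Tie1 (ENSMUSG00000033191, chr4:118471191-118490061, minus strand), an endothelial receptor kinase that works with the angiopoietin receptor TEK, was at 12.7, 11.7 and 9.10 CPM in WT and at 33.1, 18.5 and 26.3 CPM in cKO. The groups did not overlap, but the cKO libraries differed among themselves by more than the WT libraries did. Its mean level in cKO was 2.32 times that in WT, a log2 fold change of 1.21 (adjusted p = 0.00504, SE 0.22). With the GC offset the value was 1.36, and without the 2 libraries 1.29.

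Eng (ENSMUSG00000026814, chr2:32646595-32682669, plus strand) encodes endoglin, a co-receptor for ligands of the bone morphogenetic protein (BMP) and TGF-beta family. It was at 24.9, 23.3 and 18.6 CPM in WT and at 86.5, 52.1 and 66.9 CPM in cKO. The lowest cKO library lay above 2 times the highest WT library. The mean rose 3.08-fold, a log2 fold change of 1.62 (adjusted p = 7.01e-04, SE 0.19), 1.76 with the GC offset and 1.68 without the 2 libraries. Of the exonic bases of Eng, 61 are shared with Fpgs on the opposite strand, and whether the counting used strand is not stated.

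Pecam1 (ENSMUSG00000020717, chr11:106654217-106750628, minus strand), an adhesion molecule of endothelial junctions, platelets and leukocytes, was at 34.0, 32.8 and 34.1 CPM in WT and at 43.8, 46.4 and 45.6 CPM in cKO. Its libraries lay closest together of the 9 tested genes and the groups were clearly apart. The rise was 1.35-fold (log2 fold change 0.43, adjusted p = 8.89e-04, SE 0.05), with a log2 value of 0.39 under the GC offset and 0.43 without the 2 libraries.

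Cdh5 (ENSMUSG00000031871, chr8:104101625-104144511, plus strand) encodes VE-cadherin, the cadherin of endothelial junctions and a standard mark of hemogenic endothelium. Its counts were few (WT 14, 11 and 4; cKO 30, 29 and 21), that is 0.628, 0.535 and 0.186 CPM against 1.31, 1.18 and 0.952 CPM. All cKO libraries lay above all WT libraries. The mean rose 2.55-fold (log2 fold change 1.34, adjusted p = 0.0261, SE 0.37). This call was marginal and was lost with fewer libraries. The adjusted p was 0.0617 without WT replicate 2 and 0.0529 without cKO replicate 1. It was 0.0518 without cKO replicate 2 and 0.0519 without cKO replicate 3. The log2 fold changes of these fits were 1.25 to 1.47. Without WT replicate 3 and cKO replicate 2 together the adjusted p was 0.0588 (log2 fold change 0.96), and with the GC offset 0.0138 (1.32).

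Esam (ENSMUSG00000001946, chr9:37528078-37538319, plus strand), an adhesion molecule of endothelial tight junctions that is also a surface mark of fetal and adult blood stem cells, was at 1.79, 1.26 and 1.58 CPM in WT and at 4.79, 4.13 and 4.85 CPM in cKO. The lowest cKO library lay above 2 times the highest WT library. The rise was 2.97-fold (log2 fold change 1.56, adjusted p = 3.49e-04, SE 0.16), with a log2 value of 1.58 under the GC offset and 1.65 without the 2 libraries.

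Egfl7 (ENSMUSG00000026921, chr2:26580014-26593120, plus strand), a factor secreted by endothelium whose gene also holds that of the vascular microRNA Mir126a, was at 44.9, 44.3 and 28.2 CPM in WT and at 49.6, 23.4 and 34.1 CPM in cKO. The highest and the lowest of the 6 libraries were both cKO. The log2 fold change was -0.13 (adjusted p = 0.746, SE 0.28), -0.01 with the GC offset and -0.08 without the 2 libraries. Its gene model shares 64 exonic bases with Agpat2 on the opposite strand.

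Plvap (ENSMUSG00000034845, chr8:71497765-71511752, minus strand), which forms the diaphragms of caveolae and of openings in fenestrated endothelium, was at 6.28, 4.77 and 3.16 CPM in WT and at 3.79, 2.07 and 2.58 CPM in cKO. The groups overlapped through WT replicate 3 and cKO replicate 1. Its log2 fold change of -0.76 (adjusted p = 0.0914, SE 0.30) did not pass the test. It was called lower with DESeq2 (-0.77, adjusted p = 0.0418), with no filter on low counts (0.0488), without WT replicate 3 (-0.98, 0.0281) and without cKO replicate 1 (-1.02, 0.0324). It was also called lower with the replicate number as a block (-0.75, 0.0306), with the GC offset (-0.50, 0.0295) and without WT replicate 3 and cKO replicate 2 (-0.78, 0.0271). The adjusted p of Plvap ranged from 0.0271 to 0.278 over all alternatives run.

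Sox17 (ENSMUSG00000025902, chr1:4490931-4497354, minus strand), a transcription factor of arterial and hemogenic endothelium that is also needed by fetal blood stem cells, had 0 counts in all 6 mouse libraries. A count of 0 allows up to 3 counts, which is 0.122 to 0.146 CPM in these libraries, so any expression below that was not detectable at this depth.

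**Figure D2:**
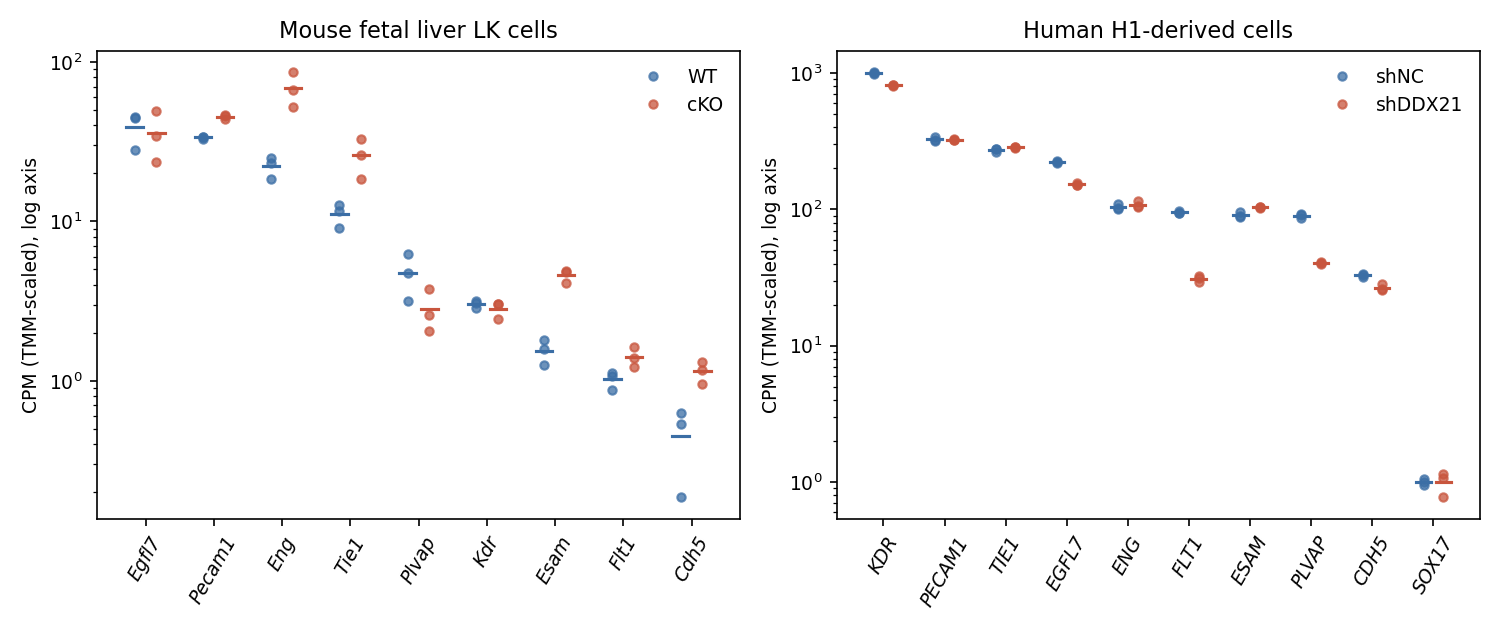
Level of each gene in every library (CPM scaled by TMM factors, log axis, points) with the group mean as a bar, for mouse WT and cKO (left) and human shNC and shDDX21 (right). The cKO points of Eng lie between 52.1 and 86.5 CPM, above the WT points at 18.6 to 24.9 CPM, while the human groups of ENG overlap and those of FLT1 lie far apart. Mouse Sox17 had 0 counts and is not drawn.

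Per length of transcript, as reads per kilobase of exon (RPKM, CPM divided by exon length), the 10 genes stood in a different order in the 2 cell types. In mouse WT, Egfl7 was highest at 10.9 RPKM, followed by Eng at 5.50 and Pecam1 at 5.40 RPKM, whose ranges over libraries overlapped. Plvap at 2.38 and Tie1 at 2.27 RPKM also overlapped, and Esam (0.539), Kdr (0.337), Cdh5 (0.107) and Flt1 (0.0757) followed, the last pair with overlapping ranges. In cKO, Eng had the highest mean at 16.9 RPKM, but its range reached that of Egfl7 at 9.97 RPKM, and that of Egfl7 reached Pecam1 at 7.27 RPKM. In human shNC cells KDR was highest at 158.9 RPKM and EGFL7 next at 87.0 RPKM, with every library of one above every library of the other. PECAM1 (42.3), TIE1 (40.7) and PLVAP (39.2 RPKM) overlapped with their neighbour in the order, and ESAM (31.2), ENG (18.9), FLT1 (7.55), CDH5 (5.49) and SOX17 (0.427 RPKM) followed without overlap. The 2 tables were made from different gene models, so RPKM was not compared between the species by a test.

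In the human H1-derived cells, 5 of the 10 genes were lower in shDDX21, namely FLT1, PLVAP, EGFL7, KDR and CDH5, at 32.7% to 80.8% of their shNC level. ESAM and TIE1 were called higher, at 114.1% and 104.8%, and PECAM1, ENG and SOX17 did not pass the test. Over all 20188 human genes tested, 25.3% were called higher and 27.4% lower, 52.7% together, so a call in itself was common. The median log2 fold change was -0.16 over the 10 genes and 0.01 over all genes. Their summed level was 2224 to 2272 CPM in shNC and 1878 to 1902 CPM in shDDX21.

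KDR (ENSG00000128052) was at 993.1, 1010 and 1019 CPM in shNC replicates 1 to 3 and at 813.5, 802.8 and 825.2 CPM in shDDX21. No shDDX21 library came near the shNC range, as was so, in the lower direction, for 29.5% of all genes. KDR fell to 80.8% (log2 fold change -0.31, adjusted p = 9.95e-23, SE 0.02).

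FLT1 (ENSG00000102755) was at 93.4, 94.8 and 96.6 CPM in shNC and at 32.6, 29.3 and 31.3 CPM in shDDX21. The groups were far apart, and of the 10 genes FLT1 kept the smallest share of its shNC level. It fell to 32.7% (log2 fold change -1.61, adjusted p = 8.26e-43, SE 0.05). The 2 receptors for VEGF thus both fell, by unequal amounts.

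TIE1 (ENSG00000066056) was at 275.3, 279.0 and 264.7 CPM in shNC and at 287.8, 285.7 and 284.5 CPM in shDDX21. The groups did not overlap but lay within a few percent of each other. The log2 fold change was 0.07 (adjusted p = 0.0197, SE 0.03). The call was lost with libraries scaled by total counts (0.04, adjusted p = 0.195), with no filter (0.0783), without shNC replicate 3 (0.04, 0.204) and without shDDX21 replicate 1 (0.0557).

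ENG (ENSG00000106991) was at 109.8, 100.1 and 103.1 CPM in shNC and at 105.6, 104.5 and 115.3 CPM in shDDX21. The groups overlapped, and the log2 fold change was 0.05 (adjusted p = 0.236, SE 0.04). The human ENG gene model shares 1396 exonic bases with LOC102723566 on the opposite strand, which had 454 counts over the 6 libraries.

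PECAM1 (ENSG00000261371) was at 319.8, 339.0 and 322.4 CPM in shNC and at 321.9, 329.4 and 321.6 CPM in shDDX21, with overlapping groups and a log2 fold change of -0.01 (adjusted p = 0.732, SE 0.03). CDH5 (ENSG00000179776) was at 33.2, 33.8 and 32.0 CPM in shNC and at 28.1, 25.7 and 26.1 CPM in shDDX21. All shDDX21 libraries lay below all shNC libraries, and CDH5 fell to 80.7% (log2 fold change -0.31, adjusted p = 2.16e-05, SE 0.06). ESAM (ENSG00000149564) was at 90.1, 95.6 and 87.6 CPM in shNC and at 104.5, 103.0 and 104.4 CPM in shDDX21. Here all shDDX21 libraries lay above all shNC libraries, as for 27.9% of all genes, and ESAM rose to 114.1% (log2 fold change 0.19, adjusted p = 4.36e-06, SE 0.04). The 3 junction genes thus gave 3 results: no call, a fall and a rise.

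EGFL7 (ENSG00000172889) was at 221.8, 227.3 and 220.0 CPM in shNC and at 150.7, 155.2 and 151.5 CPM in shDDX21, a fall to 68.4% (log2 fold change -0.55, adjusted p = 5.68e-28, SE 0.03). PLVAP (ENSG00000130300) was at 86.8, 91.1 and 92.2 CPM in shNC and at 39.9, 41.4 and 40.7 CPM in shDDX21. The groups of both genes were far apart, and PLVAP fell to 45.2% (log2 fold change -1.15, adjusted p = 2.52e-35, SE 0.04). SOX17 (ENSG00000164736) was detected here, with 19, 16 and 17 counts in shNC and 21, 13 and 20 counts in shDDX21, or 0.957 to 1.04 CPM and 0.771 to 1.14 CPM. The groups overlapped, and at this depth the SE of its log2 fold change was 0.34 around an estimate of 0.00 (adjusted p = 0.999).

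The responses of the 2 experiments were compared gene by gene with an interaction test in 1 fit of all 12 libraries, over the 10318 genes tested in both. The mouse log2 fold change lay above the human one for 35.8% of these genes by a called difference, and a difference in either direction was called for 56.2%. Of the 9 genes that could be compared, 6 were called, each with the mouse value above the human one. The difference was 2.07 for FLT1 (adjusted p = 7.08e-07, SE 0.16), 1.65 for CDH5 (SE 0.30, 6.41e-04), 1.57 for ENG (SE 0.22, 7.56e-05) and 1.37 for ESAM (SE 0.13, 3.88e-06). It was 1.14 for TIE1 (SE 0.23, 0.00112) and 0.44 for PECAM1 (SE 0.05, 1.31e-05). CDH5 was the member called in opposite directions, higher in mouse cKO and lower in human shDDX21. The fit takes the same spread per gene in both experiments, although replicates spread by 10.5% in the mouse and 2.23% in the human. The SE of a difference can therefore be smaller than that of the mouse change alone (0.16 against 0.20 for FLT1). The SE and adjusted p of this test may thus be too small.

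For KDR the difference was 0.21 (adjusted p = 0.213, SE 0.09), for PLVAP 0.39 (SE 0.29, 0.265) and for EGFL7 0.41 (SE 0.30, 0.264). None of these passed the test, which does not show that the 2 responses were alike. The SE computed for the KDR difference is smaller than its unadjusted p of 0.155 in this test implies, and so understates its uncertainty. The EGFL7 difference was called without cKO replicate 2 (0.66, adjusted p = 0.0216) and without WT replicate 3 and cKO replicate 2 (0.47, 0.00534). Species, kind of cell, way of losing DDX21 and time after its loss all differ between the experiments and cannot be told apart in this test.

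**Figure D3:**
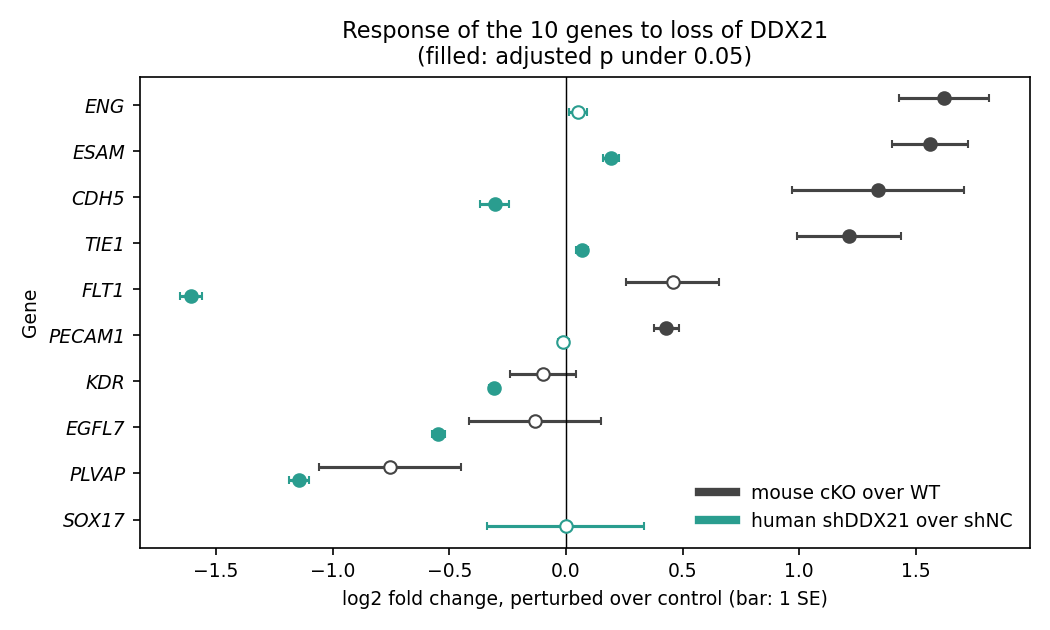
Log2 fold change of each gene after loss of DDX21 (horizontal axis; bars show 1 SE) in mouse cKO over WT (dark) and human shDDX21 over shNC (green), with filled points at an adjusted p under 0.05. Eng, Esam, Cdh5 and Tie1 lie between 1.21 and 1.62 in the mouse while the human values of the same genes lie between -0.31 and 0.19, and FLT1 and PLVAP are the lowest human points at -1.61 and -1.15.

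Lists of other genes of these pathways were read from the same fits, and each count stands beside the share called over all genes tested in that experiment. Of 13 tested mouse genes of VEGF and angiopoietin signalling, 7 were higher and 4 lower in cKO (median log2 fold change 0.46), where 20.7% of all genes were higher and 15.8% lower. The angiopoietin receptor Tek, the partner of TIE1, rose from 8.004 ± 0.45 to 33.1 ± 3.32 CPM (SD, n = 3; log2 fold change 2.05, adjusted p = 1.02e-05). Its ligand Angpt1 rose from 32.8 ± 2.38 to 99.8 ± 3.35 CPM (1.61, 4.13e-06), and Plcg1, a phospholipase downstream of KDR, rose by 1.07 on the log2 scale (adjusted p = 3.34e-06). The VEGF co-receptor Nrp1 fell from 3.90 ± 0.30 to 0.618 ± 0.02 CPM (-2.65, 2.33e-05). Among the ligands, Vegfa fell from 23.6 ± 0.33 to 17.3 ± 1.81 CPM (-0.45, 0.00722) and Vegfb from 8.60 ± 2.26 to 4.83 ± 0.89 CPM (-0.83, 0.0252). The Vegfb call was lost without WT replicate 1, WT replicate 2, cKO replicate 2 or cKO replicate 3. Vegfb has 62.6% GC, and the median log2 fold change of genes over 60% GC was -0.404. The fourth fall was that of Shb, an adaptor of KDR (-1.15, adjusted p = 0.0051), named after its value was seen. Pgf, a ligand of FLT1, had at most 4 counts in any mouse library and was not tested.

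In the human cells the same list had 15 tested genes, of which 3 were higher and 9 lower (median -0.47), where 25.3% of all genes were higher and 27.4% lower. The share of higher genes was thus near that over all genes. NRP1 fell from 81.4 ± 4.43 to 30.7 ± 0.83 CPM (-1.41, adjusted p = 9.64e-38), ANGPT1 from 72.9 ± 2.60 to 27.3 ± 1.20 CPM (-1.42, 5.50e-37) and VEGFA from 88.4 ± 3.34 to 49.1 ± 1.76 CPM (-0.85, 2.06e-28). GRB10, an adaptor of receptor kinases, fell by 0.93 on the log2 scale (adjusted p = 5.08e-33). TEK rose from 84.6 ± 1.06 to 129.4 ± 6.41 CPM (0.61, 6.27e-25), and the other two increases were those of the signalling genes PLCG1 (0.12, 0.00212) and PTK2B (0.58, 4.05e-28), named after their values were seen. VEGFB was at 16.5 CPM in shNC and 17.2 CPM in shDDX21 and was not called (0.05, 0.625). PGF fell from 10.3 ± 0.92 to 8.40 ± 1.57 CPM (-0.29, 0.0291), a call lost with DESeq2, without shNC replicate 2 and without shDDX21 replicate 3.

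Around ENG, the list of BMP and TGF-beta receptors, SMAD proteins and targets had 17 tested mouse genes, 8 higher, 0 lower and 9 not called (median 0.27; all genes 20.7% higher, 15.8% lower). The receptor genes Bmpr1a and Tgfbr3 rose by 0.74 (adjusted p = 0.00274) and 0.47 (1.49e-04), and Smad5, which carries BMP signals, by 0.27 (0.0039). Acvrl1, the receptor that works with endoglin in endothelium, was not tested, with WT counts of 14, 15 and 9 and cKO counts of 3, 10 and 6. In the human cells 1 of 21 tested genes was higher and 14 were lower (median -0.33; all genes 25.3% higher, 27.4% lower). ACVR2B fell from 105.5 ± 7.87 to 41.2 ± 1.10 CPM (-1.36, 4.50e-39) and ID1, a target gene of BMP signalling, from 34.0 ± 2.80 to 12.2 ± 1.45 CPM (-1.47, 3.03e-27). SMAD5 fell by 0.88 (2.26e-30) and ACVRL1 by 0.62 (6.14e-10), while TGFB1 rose from 407.5 ± 9.66 to 612.5 ± 5.29 CPM (0.59, 1.02e-35). ENG itself did not pass the test in these cells.

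Of 31 tested mouse genes of endothelial junctions and surfaces, 18 were higher and 1 lower in cKO (median 0.69; all genes 20.7% higher, 15.8% lower). They include Adgrl4, an adhesion receptor of vessels and blood stem cells, at 35.9 ± 1.21 and 115.9 ± 4.51 CPM (1.69, adjusted p = 1.36e-06), and Cd34, at 133.7 ± 6.22 and 215.2 ± 2.13 CPM (0.69, 3.18e-05). Cd93 rose by 0.91 (1.85e-05) and Mmrn1 by 1.11 (1.93e-05). The 1 lower gene, named after its value was seen, was Cd99l2 (-0.60, 4.75e-04). In the human cells 11 of 33 were higher and 15 lower (median -0.21), where 25.3% of all genes were higher and 27.4% lower. The adhesion gene MCAM fell from 118.0 ± 5.45 to 57.8 ± 3.12 CPM (-1.03, 6.09e-35), MMRN1 by 0.58 (3.84e-30) and the caveolar gene CAVIN1 by 0.67 (3.42e-28), while CTNNB1, the catenin that binds VE-cadherin, rose by 0.42 (5.09e-27).

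Among 27 tested mouse transcription factors of endothelial and hemogenic cells, 18 were higher and 3 lower in cKO (median 0.51), where 20.7% of all genes were higher and 15.8% lower. The ETS factor Erg rose from 23.1 ± 0.87 to 46.7 ± 2.24 CPM (1.01, adjusted p = 3.42e-05) and Mecom, a factor of blood stem cells, from 1.90 ± 0.57 to 13.0 ± 0.40 CPM (2.77, 4.62e-05). Cbfb, the partner of RUNX1, rose by 0.75 (4.23e-05), Etv6 by 0.58 (3.62e-05) and Sox18, a relative of SOX17, by 1.67 (3 to 8 counts per WT library; 0.0167; lost with DESeq2 and without WT replicate 2 or cKO replicate 3). The 3 lower genes were Gfi1b (-0.78, 0.0139; lost without WT replicate 1, WT replicate 2 or cKO replicate 3) and, named after their values were seen, Tal1 (-0.26, 9.10e-04) and Klf4 (-3.02, 0.00163). Gfi1b has 57.5% GC, and the median log2 fold change of genes of 57 to 60% GC was -0.297. Klf4 was near the floor, with a mean of 0.858 CPM in WT and 0.098 CPM in cKO, the latter below the level of 3 counts. Runx1, the factor that drives the switch from endothelium to blood, was at 95.1 ± 1.70 and 103.6 ± 3.71 CPM (0.12, 0.0594). Gfi1 was at 5.20 and 5.78 CPM (0.15, 0.467) and Gata2 at 46.8 ± 10.4 and 66.7 ± 18.2 CPM (0.51, 0.116). Runx1 was called higher with total counts, with a minimum of 10 counts in every library and without cKO replicate 2. Gata2 was called higher with the GC offset (0.69), DESeq2, the replicate block, without cKO replicate 2 and without WT replicate 3 and cKO replicate 2, and Sox7 had at most 2 counts in any mouse library.

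In the human cells 5 of 26 tested factors were higher and 16 lower (median -0.40; all genes 25.3% higher, 27.4% lower). GATA2 fell from 434.6 ± 7.33 to 199.6 ± 2.76 CPM (-1.12, adjusted p = 1.31e-49), ERG from 35.05 ± 1.03 to 13.9 ± 0.84 CPM (-1.33, 4.12e-27) and LMO2 from 220.6 ± 2.25 to 129.2 ± 1.24 CPM (-0.77, 5.77e-36). GFI1 fell by 1.93 (3.16e-16) and SOX18 by 1.30 (7.14e-09), while GFI1B was not called (0.04, 0.239). TAL1, which forms a complex with LMO2 and GATA factors, rose from 675.7 ± 2.67 to 982.3 ± 8.84 CPM (0.54, 3.05e-36). The other increases, named after their values were seen, were those of FLI1 (0.20, 1.19e-09), LYL1 (0.14, 3.31e-06), FOXO1 (0.73, 1.73e-25) and KLF2 (2.55, 2.88e-23), a factor that endothelium switches on under flow. Human RUNX1 and SOX7 were not matched by symbol and so were not analysed, and 26 of the 34 listed factors were matched in the human.

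Of 12 tested mouse arterial and Notch genes, 6 were higher and 1 lower in cKO (median 0.81; all genes 20.7% higher, 15.8% lower). Notch3 rose from 4.39 ± 0.43 to 29.9 ± 6.52 CPM (2.76, adjusted p = 3.64e-05), Gja5, a gap junction gene of arteries, from 0.236 ± 0.13 to 1.79 ± 0.14 CPM (2.91, 5.15e-04) and Efnb2 by 1.12 (0.0115; lost with DESeq2). Gja5 rested on 2 to 7 counts per WT library. The count of higher genes was 3 with DESeq2, without WT replicate 2, without WT replicate 3, without cKO replicate 1 and without cKO replicate 3, which is nearer the share over all genes. The 1 lower gene was the chemokine receptor Cxcr4 (-0.41, 0.02), a call lost without cKO replicate 1 or cKO replicate 3. In the human cells 2 of 19 were higher and 14 lower (median -0.53; all genes 25.3% higher, 27.4% lower). NOTCH3 fell by 1.20 (5.56e-29) and RBPJ, the DNA-binding factor of the Notch pathway, by 0.62 (6.38e-26). EPHB4, a receptor of venous endothelium that the list also holds, fell by 0.54 (6.88e-14). CXCR4 rose by 0.75 (3.83e-15) and HEY2, named after its value was seen, by 0.61 (0.0219). The human count of higher genes was 1 with DESeq2, without shNC replicate 1, without shDDX21 replicate 1 and without shDDX21 replicate 3.

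**Figure D4:**
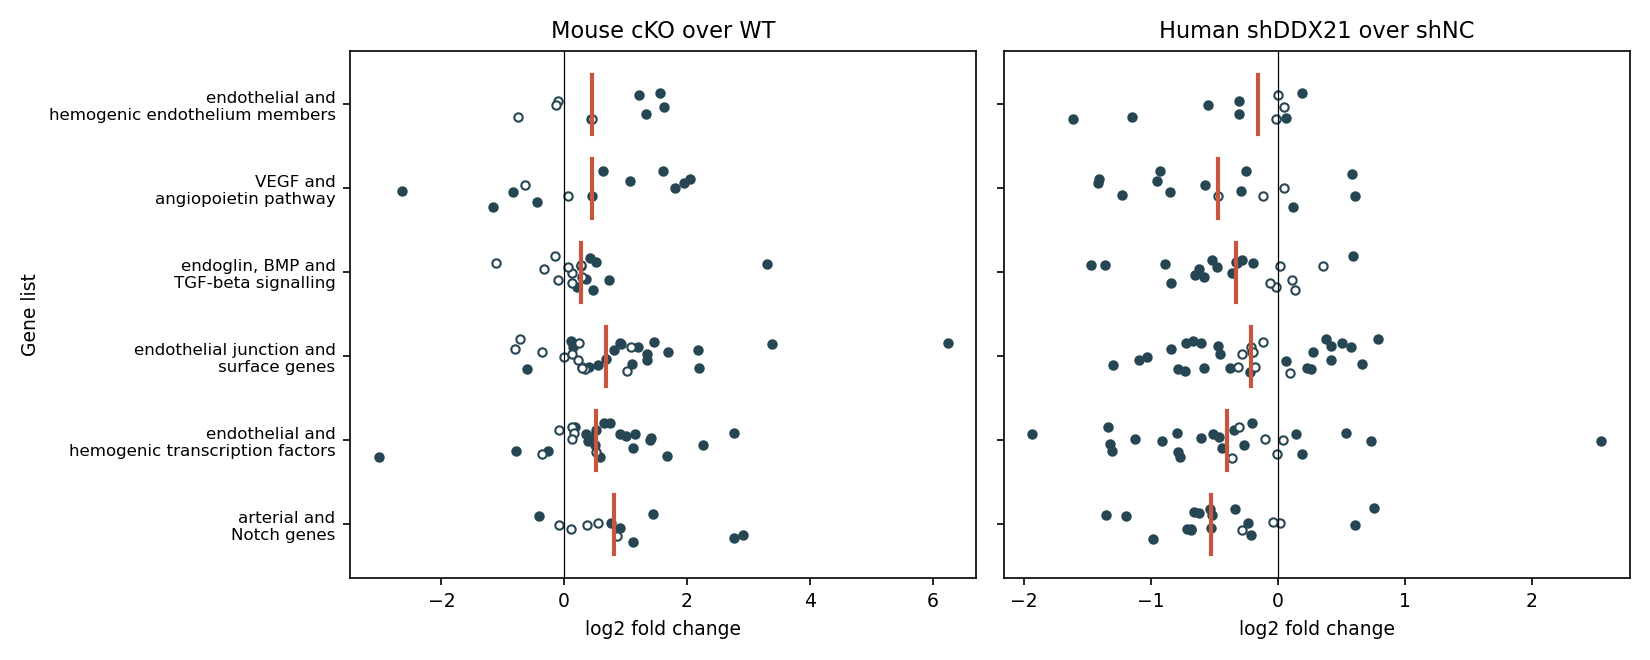
Log2 fold change (horizontal axis) of every tested member of the 10 genes and of the 5 pathway lists (rows), in mouse cKO over WT (left) and human shDDX21 over shNC (right), with called genes filled and the list median as a red bar. The mouse medians lie between 0.27 and 0.81 and the human medians between -0.53 and -0.16. The mouse junction point at 6.25 is Mmrn2, which had at most 3 counts in each WT library, so its fitted value is no bound.

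Markers of other cell types moved with the mouse groups, and their counts stand against 20.7% higher and 15.8% lower over all genes. The liver cell list was higher in cKO: 7 of 9 tested hepatocyte genes rose and 0 fell, with a median log2 fold change of 3.03 (1.97 with 3 genes at the bound that 3 counts set), and a summed level of 53.7 to 80.8 CPM in WT and 86.2 to 124.9 CPM in cKO. Alb was at 0.417 ± 0.18 and 12.1 ± 1.47 CPM and Afp at 0.857 ± 0.10 and 14.4 ± 0.58 CPM. Of 16 listed sinusoidal endothelium genes, which are those of the vessels of the liver itself, 8 were tested, 4 were higher and 1 lower. The 4 higher genes are also on the junction and surface list, so the counts of these lists are not independent. The summed level of the sinusoidal list was 183.3 to 217.5 CPM in WT and 160.3 to 168.8 CPM in cKO. Within it Aqp1, a water channel also made by red cell precursors, fell from 139.8 to 12.8 CPM. Without Aqp1 (a sum added after seeing the data) it was 62.6 to 65.5 CPM in WT and 149.3 to 154.8 CPM in cKO. Most of this rise came from Adgrl4 alone, whose mean went from 35.95 to 115.9 CPM. Adgrl4 is also a receptor of blood stem cells, and the sum says little about the other genes of the list. Over the 8 tested genes the median log2 fold change was 1.185. With no filter on low counts, 7 of 15 tested were higher and 1 lower, beside 2927 higher and 2632 lower of 28993 genes. Cldn5, a tight junction gene of endothelium, had 0 counts in all 6 mouse libraries, Lyve1 had 0 in WT and 2 to 4 in cKO, and Stab2 had 4 to 13 in WT and 5 to 9 in cKO. Named after their values were seen, Clec4g had 0 to 3 counts in WT and 8 to 21 in cKO, Oit3 had 0 to 1 and 4 to 6, and Emcn rose from 1.26 ± 0.39 to 3.51 ± 0.16 CPM (adjusted p = 0.00182). The part of hepatic or endothelial RNA in the changes of the 10 genes was not tested.

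Megakaryocyte and stem cell genes, which share several surface proteins with endothelium, moved as well (all genes: 20.7% higher, 15.8% lower). Of 13 tested mouse megakaryocyte genes 6 were higher and 0 lower, with a summed level of 150.8 to 170.3 CPM in WT and 253.7 to 321.2 CPM in cKO. Itga2b was at 53.5 ± 4.78 and 110.3 ± 16.0 CPM, and Pf4 at 3.34 ± 0.61 and 3.23 ± 1.14 CPM was not called. Of 23 tested genes of stem and multipotent progenitors 19 were higher and 0 lower in cKO (median 1.25), with a summed level of 788.3 to 817.1 CPM in WT and 1239 to 1281 CPM in cKO. Esam is itself on that list, so the 2 counts are not independent. Of 9 tested erythroid genes 3 were higher and 4 lower, with sums of 2170 to 2328 CPM (WT) and 1448 to 1595 CPM (cKO). Of 3 tested macrophage genes 1 was higher and 2 were lower (37.3 to 40.4 and 14.4 to 16.7 CPM), and of 3 tested stellate and mesenchymal genes 2 were higher and 0 lower (10.9 to 14.99 and 17.1 to 23.7 CPM). In each of the last 2 lists, 6 further genes had at most 3 counts in every library. How far these shifts enter the levels of the 10 genes was not tested.

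In the human cells, where 25.3% of all genes were higher and 27.4% lower, the marker lists moved in both directions. Of 11 tested sinusoidal endothelium genes 2 were higher and 6 lower in shDDX21, with a summed level of 331.1 to 352.4 CPM in shNC and 248.4 to 259.0 CPM in shDDX21. Megakaryocyte genes summed to 2368 to 2463 and 2658 to 2683 CPM (6 of 11 higher, 3 lower), and erythroid genes to 1745 to 1778 and 1383 to 1398 CPM (6 of 10 higher, 2 lower). Of 20 tested stem and multipotent genes 8 were higher and 9 lower (median 0.01). In the sort markers, CD34 rose from 248.6 to 297.5 CPM and SPN from 690.8 to 883.0 CPM, and PTPRC fell from 94.9 to 69.4 CPM. Macrophage genes (2 of 7 higher, 4 lower) summed to 497.3 to 512.9 CPM in shNC and 505.9 to 515.4 CPM in shDDX21, and stellate and mesenchymal genes (2 of 8 higher, 6 lower) to 208.0 to 219.4 and 204.7 to 213.2 CPM. Hepatocyte genes (2 of 4 higher, 2 lower) summed to 3021 to 3179 and 3269 to 3340 CPM, and the part of these lists in the changes of the 10 genes was not tested.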

How the data were processed

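Polyadenylated RNA was sequenced from 12 libraries. The authors deposited raw tables of whole-number read counts, which also list where each gene lies and how long its exons are. The submitters' processing notes name STAR, featureCounts, DESeq2, mm10 and hg38, and their settings, including strand and reads that fit several genes, are not given in the sources used here. The deposited normalized tables (unit: signal) are raw counts over a factor fixed for the library (relative deviation at most 4.97e-10). The same deposited tables give log2 values over the control mean, and were used for symbols only. No column of per-sample values was left unused.

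Each experiment was fitted alone and over its whole table, in R 4.3.3 with edgeR 4.0.16: filterByExpr, TMM factors, glmQLFit and glmQLFTest (two-sided), with no covariates. Adjusted p is Benjamini-Hochberg over all genes tested, and values in parentheses after a log2 fold change are adjusted p. SE was taken as the size of the log2 fold change divided by the root of F. CPM uses TMM-scaled library sizes, SD is over 3 libraries, and RPKM divides CPM by the deposited exon length in kilobases. The interaction test used genes matched by symbol and 4 group means, with the same spread per gene in both experiments. An exact permutation test of 3 libraries against 3 reaches no two-sided p under 0.1, and the p-values come from the model across all genes. Floors of 3 counts cover counting error only, since reads carry no molecular identifiers.

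Mouse positions are those of the raw table, and all 10 genes have the same start and end in GENCODE M21 (GRCm38). GC content is that of the longest GENCODE M21 transcript, known for 99.87% of the tested mouse genes. Promoters come from RefSeq, which matched 5 of the 10 mouse genes with 7 starts. The procedure was tested on simulated data. Alternatives were RLE factors, total counts, DESeq2 1.42.0, other filters, the replicate number as a block, a 2-fold minimum and leaving out each library. The GC offset and leaving out WT replicate 3 with cKO replicate 2 were added after seeing the data.

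The 10 genes, the 5 pathway lists and the 8 marker lists were chosen with earlier results of these data known. Human genes were found through the deposited symbols only, so listed genes without a symbol there are missing from the human counts. For example, 33 of 38 junction and surface genes and 4 of 18 hepatocyte genes were matched in the human. Beside the 10 genes, the text names up to 4 called genes of smallest p per pathway list and experiment, a fixed set of ligands, receptors and factors, and at most 3 defining markers per marker list. One gene that this rule names is not reported here.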

Additional observations from a re-analysis of the deposited data

Results flagged for a closer look

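For 6 of the 9 comparable genes the interaction test called a difference between the experiments, each time with the mouse log2 fold change above the human one. The difference was 2.07 for FLT1, 1.65 for CDH5, 1.57 for ENG, 1.37 for ESAM, 1.14 for TIE1 and 0.44 for PECAM1. For CDH5 the call was in opposite directions, and for FLT1 it was lower in the human cells with no call in the mouse. Over all alternatives run, the FLT1 difference stayed between 1.95 and 2.24 and that of PECAM1 between 0.42 and 0.54. The difference ranged from 1.27 to 1.97 for CDH5, from 1.37 to 1.74 for ENG, from 1.24 to 1.49 for ESAM and from 0.94 to 1.35 for TIE1. A minimum of 10 counts in every library left CDH5 out of the test, and the other 5 genes were called under every alternative. All these fits take the same spread per gene in both experiments, so their adjusted p may be too small.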

How the results depend on the processing

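With a 2-fold minimum beside the adjusted p, 1354 mouse and 1450 human genes were called. These included 4 of the 10 listed genes in the mouse (Eng, Esam, Cdh5 and Tie1, with Pecam1 lost). In the human they included 2 of the 10 (FLT1 and PLVAP). Log2 fold changes near 0 changed sign when 1 library was left out, ranging from -0.149 to 0.010 for mouse KDR (above 0 without cKO replicate 1), -0.43 to 0.112 for mouse EGFL7 (above 0 without cKO replicate 2) and -0.031 to 0.011 for human PECAM1. The range was -0.101 to 0.144 for human SOX17 and -0.009 to 0.13 for human VEGFB, and shNC replicate 2 was the library whose omission turned PECAM1 and VEGFB. Human SOX17 was also 0.003 with RLE factors and 0.010 with a minimum of 10 counts per library. None of these 5 was called under any setting run. Leaving out 1 library gave 3717 to 5671 called mouse genes (4 to 6 of the 10), 9820 to 10079 human genes (6 to 7) and 5347 to 6263 genes in the interaction test (6 to 7). DESeq2 called 4494 mouse and 8931 human genes. With the GC offset 6970 mouse genes were called, 3397 higher and 3573 lower.

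The replicate block gave 5166 called mouse genes (6 of the 10, Plvap added), 10601 human genes (7) and 5722 in the interaction test (6). The numbers do not pair the samples: same-numbered libraries deviated from their group means with correlations of 0.644, -0.421 and 0.086 in the mouse and -0.028, 0 and -0.007 in the human. In the mouse, WT replicate 1 matched best with cKO replicate 1, but WT replicate 3 with cKO replicate 2 (0.714).

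Depth limits mouse Cdh5, Flt1 and Sox17 and human SOX17, with at most 36 counts per library. With 3 libraries a group, leaving out 1 library can change the calls of mouse Cdh5, mouse Plvap and human TIE1.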
